A study of Homo sapiens with 10 samples.

Results

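The transcripts of 10 genes that make, turn over or remove the endosomal phosphoinositides were followed in QGP-1 cells, an established human pancreatic neuroendocrine tumor line. The members were taken by gene name and are PIKFYVE, VAC14, FIG4, PIK3C3, PIK3R4, PIP4K2A, PIP4K2B, PIP4K2C, MTM1 and MTMR2. All 10 were found in both deposited tables, among 35606 gene IDs per table. RNA-seq was run on 10 samples in 5 groups of 2. In the knockdown table, cells carrying the guide sgPIKFYVE-1 (genotype label PIKFYVE knockdown) stood against cells carrying the control guide sgNC (genotype label WT). Both were stable, puromycin-selected lentiviral QGP-1 lines for CRISPR interference (CRISPRi), in which a Cas9 without nuclease activity, fused to the KRAB repressor, is brought to a gene's start. The knockdown rests on a single guide. In the drug table, cells labelled WT and treated with DMSO, the vehicle, stood against cells given 1 µM apilimod, a PIKfyve kinase inhibitor, or 100 nM Torin-1 (Torin1 in the labels), an mTOR kinase inhibitor. The labels give 24 h for both drugs. A shorter exposure is given in the text of the paper. Nothing states that the 2 samples of a group came from separate cultures, so the p-values measure only the spread between these samples, which may be technical.

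Phosphoinositides are lipids that mark the identity of membranes. On endosomes, the lipid kinase VPS34, encoded by PIK3C3 and held in a complex by the scaffold kinase VPS15, encoded by PIK3R4, makes phosphatidylinositol 3-phosphate (PI3P). PIKfyve phosphorylates PI3P to PI(3,5)P2 and works in a complex with the scaffold VAC14 and the phosphatase FIG4, which removes the phosphate that PIKfyve adds. The PI5P 4-kinases PIP4K2A, PIP4K2B and PIP4K2C convert PI5P to PI(4,5)P2, and the myotubularins MTM1 and MTMR2 remove the 3-phosphate of PI3P and of PI(3,5)P2. Loss of PI(3,5)P2 is known for swollen, vacuole-like endolysosomes.

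Values are a signal on the CPM scale (counts per 1000000 reads), and the tables were scaled separately, so each treated group was compared with the control of its own table. The step between low values put the samples at 9.30 to 13.6 M reads each. A count of 3 reads was worth 0.227 to 0.329 CPM, which covers counting error only. MTM1 in an sgPIKFYVE-1 sample had the fewest reads of any member, an estimated 80.0. All 6 neuroendocrine markers checked (CHGA, CHGB, SYP, INSM1, ENO2, NCAM1) were present in every sample, between 66.0 and 2586 CPM. Their sum ran from 3393 to 3558 CPM with sgNC, 2466 to 2501 with sgPIKFYVE-1, 2507 to 2547 with DMSO, 2399 to 2528 with apilimod and 2973 to 2992 with Torin-1, and its part in the results was not tested. The lower sum with sgPIKFYVE-1 was mostly CHGB, at 2477 and 2586 CPM with sgNC and 1555 and 1619 with sgPIKFYVE-1. ENO2 (165 and 163 against 119 and 115) was also lower in both knockdown samples. So were SYP (194 and 213 against 171 and 185) and INSM1 (77.8 and 76.7 against 71.5 and 75.9). CHGA, at 410 and 453 against 458 and 421, overlapped, and NCAM1, at 69.7 and 66.0 against 90.6 and 85.8, was higher. Of 7 markers of fibroblasts, leukocytes and endothelium, COL3A1 was listed at 0 in all samples and the highest value of the others was 9.60 CPM, for COL1A1. The sum of these 7 lay between 13.7 and 15.1 CPM with sgNC, 9.77 and 11.1 with sgPIKFYVE-1, 4.26 and 5.36 with DMSO, 5.38 and 5.41 with apilimod and 4.89 and 7.11 with Torin-1. In bulk RNA, fewer expressing cells and less RNA per cell cannot be told apart.

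Knockdown with sgPIKFYVE-1 lowered its target, and VAC14 and PIP4K2C rose. PIKFYVE (ENSG00000115020.17, GRCh38 chromosome 2 from 208266267 to 208358751, forward strand) was at 101 and 97.5 CPM with sgNC and at 10.9 and 12.5 CPM with sgPIKFYVE-1. Every knockdown value was far below both control values, and their mean was 11.8% of that of sgNC. On log2(value + 1), the scale of all log2 fold changes here, the change was -2.98 (SE 0.098, 95% interval -3.19 to -2.78, limma, with Benjamini-Hochberg adjustment across every tested gene, adjusted p = 1.22e-14). This residual transcript rested on an estimated 99.0 and 116 reads.

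CRISPRi acts on chromatin around a start site, so the genes next to PIKFYVE were also read. The stretch of GRCh38.p14 from RefSeq's promoter table, chr2:208266075-208266254 on the forward strand, is shown because it is the 180 bases between the outermost start of IDH1, on the opposite strand, and the RefSeq start of PIKFYVE. It is printed in lower case with no motif marked, holds 12 CG dinucleotides and has a GC content of 63.9%.
PIKFYVE–IDH1 interval: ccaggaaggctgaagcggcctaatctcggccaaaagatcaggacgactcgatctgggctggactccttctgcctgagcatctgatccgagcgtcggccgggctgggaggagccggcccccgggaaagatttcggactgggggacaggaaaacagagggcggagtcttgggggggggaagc
IDH1 encodes the cytosolic isocitrate dehydrogenase that yields NADPH. Its outermost annotated transcript starts 193 bp upstream of the PIKFYVE start, and its other transcripts start at least 10469 bp away.
IDH1 was at 154 and 160 CPM with sgNC and at 306 and 309 CPM with sgPIKFYVE-1, a log2 fold change of 0.97 (SE 0.050, limma, Benjamini-Hochberg adjusted p = 1.29e-11). IDH1 was higher in both knockdown samples as a whole gene, and these values do not tell its transcripts apart. Whether the guide acted at the outermost IDH1 start was not tested. In the drug table, where no guide was used, IDH1 was at 214 and 206 CPM with DMSO, 420 and 430 with apilimod and 76.1 and 85.8 with Torin-1. PTH2R, a parathyroid hormone receptor gene whose start lies 93447 bp downstream, was low in all knockdown-table samples, at 2.12 and 1.05 CPM with sgNC and 4.93 and 4.31 with sgPIKFYVE-1 (log2 fold change 1.15, SE 0.268, limma, Benjamini-Hochberg adjusted p = 0.00182). The other genes listed in the knockdown table with a start within 200 kb were at or near 0 and were not tested. Annotated genes that have no row there could not be read.

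VAC14 and FIG4, the partners of PIKfyve, moved differently in the knockdown. VAC14 (ENSG00000103043.15, chromosome 16 from 70687439 to 70801161, reverse strand) was at 42.4 and 41.1 CPM with sgNC and at 53.8 and 50.7 with sgPIKFYVE-1. The groups did not overlap, the knockdown mean was 125% of control, and the log2 fold change was 0.32 (SE 0.083, limma, Benjamini-Hochberg adjusted p = 0.00443). FIG4 was at 41.1 and 51.1 CPM with sgNC and at 41.0 and 42.7 with sgPIKFYVE-1. Its control samples differed from each other by more than its group means did, and its log2 fold change of -0.13 did not pass (95% interval -0.33 to 0.08, limma, Benjamini-Hochberg adjusted p = 0.315). Antisense transcripts such as VAC14-AS1 are annotated across VAC14 but have no row of their own in the tables, and whether reads were counted by strand is not given in the sources used here.

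Among the PI5P 4-kinases, PIP4K2C rose. PIP4K2C (ENSG00000166908.18, chromosome 12 from 57591174 to 57603418, forward strand) was at 140 and 145 CPM with sgNC and at 183 and 194 with sgPIKFYVE-1. Both knockdown samples lay above both controls, at 133% of the control mean, with a log2 fold change of 0.40 (SE 0.055, limma, Benjamini-Hochberg adjusted p = 7.98e-06). PIP4K2A was at 17.2 and 16.8 CPM with sgNC and at 21.8 and 19.3 with sgPIKFYVE-1. Its groups did not overlap either, yet its log2 fold change of 0.26 did not pass (limma, Benjamini-Hochberg adjusted p = 0.108). PIP4K2B had a log2 fold change of -0.12 (95% interval -0.29 to 0.05), from 49.9 and 51.1 CPM to 47.3 and 45.7, and did not pass (limma, Benjamini-Hochberg adjusted p = 0.263).

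The members that supply PI3P or remove its phosphate did not pass in the knockdown, nor did they reach an unadjusted limma p under 0.05. PIK3C3 was at 67.9 and 68.7 CPM with sgNC and at 70.9 and 69.0 with sgPIKFYVE-1, a log2 fold change of 0.03 whose 95% interval ran from -0.11 to 0.18. PIK3R4 was at 33.9 and 30.1 against 36.5 and 31.8 CPM, a log2 fold change of 0.09 with an interval from -0.13 to 0.31. For this kinase pair a change of either transcript by more than 0.31 on the log2 scale lay outside the intervals. MTM1 was at 9.83 and 9.08 against 8.77 and 12.3 CPM, and its 2 knockdown samples fell on either side of the controls, with a log2 fold change of 0.13 and an interval from -0.24 to 0.49. MTMR2 was at 63.9 and 59.1 against 65.4 and 72.2 CPM, so its groups did not overlap. Its log2 fold change of 0.16 did not pass (95% interval -0.0022 to 0.32, limma, unadjusted p = 0.053, Benjamini-Hochberg adjusted p = 0.106).

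In the knockdown, 3 of 10 members passed, 2 higher and the target lower, where 42.5% of the 13591 genes tested passed, 21.6% as higher and 20.9% as lower. The groups did not overlap for 7 members, against 70.6% of all genes tested. Neither share was above the background. The median log2 fold change was 0.11 over the members and -0.00 over all genes tested.

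**Figure D1:**
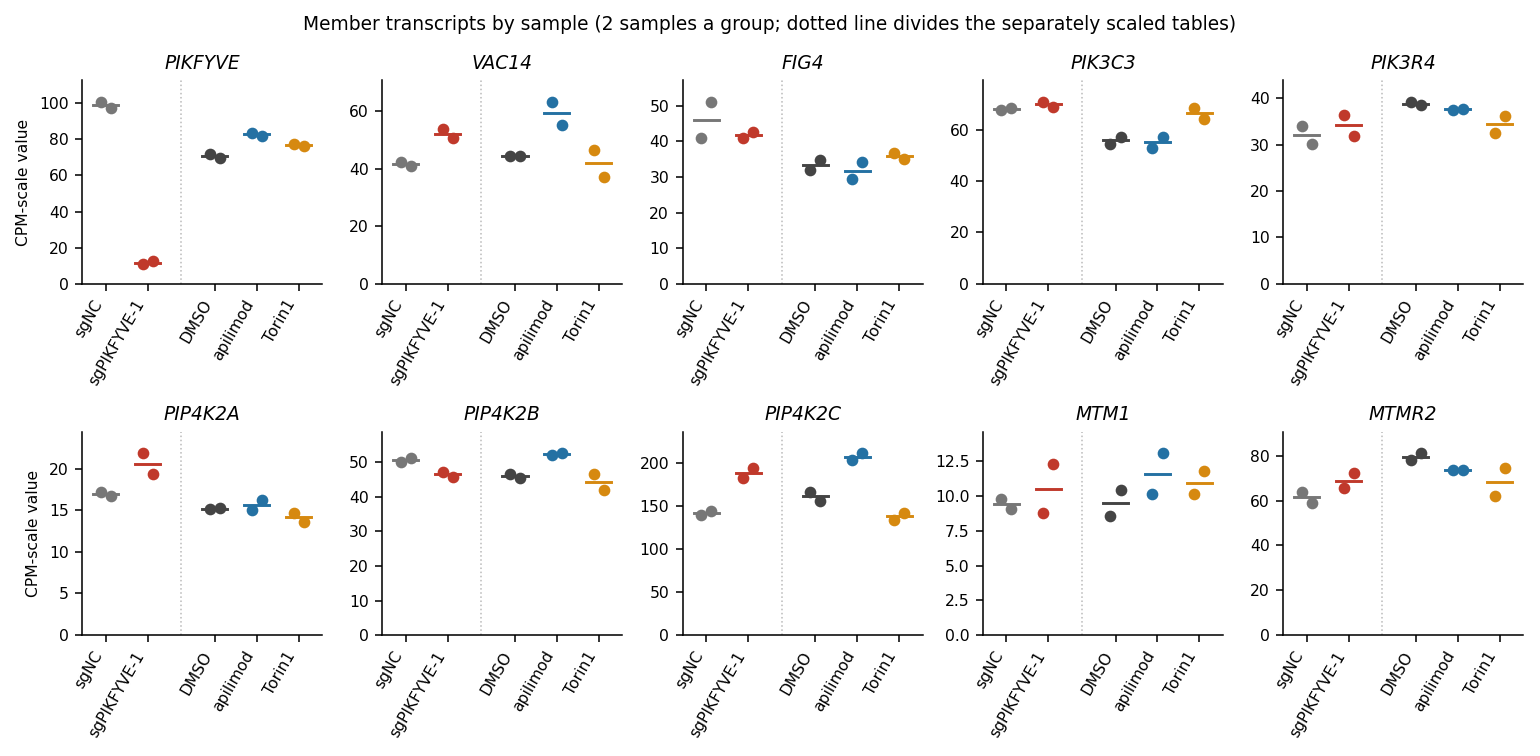
Values of the 10 members on the CPM scale (vertical axis, linear, from 0) in each sample, with a point per sample and a bar at the mean of each group of 2. The dotted line divides the separately scaled tables. PIKFYVE drops to 10.9 and 12.5 with sgPIKFYVE-1, whereas PIP4K2C is higher with sgPIKFYVE-1 and apilimod and lower with Torin-1 than in its controls.

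Apilimod blocks the kinase activity of PIKfyve, and its comparison with DMSO asks how the line responds when the enzyme is inhibited rather than its transcript lowered. VAC14 and PIP4K2C were again the members that rose. VAC14 was at 44.6 and 44.5 CPM with DMSO and at 63.3 and 55.4 with apilimod. Both apilimod samples were above the controls, but they differed from each other far more than the controls did. The mean was 133% of DMSO and the log2 fold change 0.40 (SE 0.106, 95% interval 0.17 to 0.63, limma, Benjamini-Hochberg adjusted p = 0.0293). This call did not hold everywhere. Over the 11 alternatives tried the adjusted p lay between 0.00479 and 0.228, and it missed 0.05 in 6 of them, including without apilimod replicate 1 (log2 fold change 0.31, limma, Benjamini-Hochberg adjusted p = 0.228), without DMSO replicate 1 (0.129) and without DMSO replicate 2 (0.133).

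PIP4K2C was at 167 and 156 CPM with DMSO and at 204 and 211 with apilimod. The apilimod samples stood clear of the controls at 129% of their mean, with a log2 fold change of 0.36 (SE 0.059, 95% interval 0.24 to 0.49, limma, Benjamini-Hochberg adjusted p = 0.00112). The call was lost only when the variance was not modelled as a trend on expression (limma, Benjamini-Hochberg adjusted p = 0.079), among 11 alternatives. PIP4K2B, its paralog, was at 46.6 and 45.4 CPM with DMSO and at 52.2 and 52.5 with apilimod. Those groups did not overlap, but the log2 fold change of 0.18 did not pass (95% interval 0.00 to 0.36, limma, Benjamini-Hochberg adjusted p = 0.227). PIP4K2A was at 15.1 and 15.3 CPM against 15.0 and 16.2, a log2 fold change of 0.04 with an interval from -0.23 to 0.30.

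The PIKFYVE transcript itself was at 72.0 and 69.9 CPM with DMSO and at 83.7 and 81.9 with apilimod. Both inhibitor samples were higher, at 117% of the control mean, but the log2 fold change of 0.22 (SE 0.067, 95% interval 0.08 to 0.36) just missed the threshold (limma, Benjamini-Hochberg adjusted p = 0.0604). FIG4 was at 32.0 and 34.8 CPM with DMSO and at 29.4 and 34.2 with apilimod, with overlapping groups and a log2 fold change of -0.07 (95% interval -0.29 to 0.15).

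Outside the complex and the 4-kinases, no member passed with apilimod or reached an unadjusted limma p under 0.05. PIK3C3 was at 54.6 and 57.2 CPM with DMSO and at 53.1 and 57.2 with apilimod, an interval from -0.19 to 0.15 on the log2 scale. PIK3R4 was at 39.2 and 38.5 against 37.5 and 37.8 CPM, with an interval from -0.24 to 0.15. The PI3P-making pair therefore showed no detectable shift in either direction. MTM1 was at 8.60 and 10.5 against 10.2 and 13.1 CPM, with a log2 fold change of 0.26 and a wide interval from -0.09 to 0.61. MTMR2 was at 78.1 and 81.0 against 73.5 and 73.5 CPM, with a log2 fold change of -0.11 (95% interval -0.29 to 0.07).

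With apilimod 2 of 10 members passed, both higher, where 8.54% of the 13520 genes tested passed, 5.75% as higher and 2.79% as lower. The groups did not overlap for 6 members, against 50.7% of all genes tested. The members had a median log2 fold change of 0.11, and all genes tested had -0.01.

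Torin-1 inhibits mTOR, and its samples share the DMSO controls with apilimod. PIP4K2C fell and PIK3C3 rose. The PIP4K2C values of 134 and 142 CPM with Torin-1 lay below the DMSO values of 167 and 156, at 85.6% of their mean. The log2 fold change was -0.22 (SE 0.059, 95% interval -0.35 to -0.10, limma, Benjamini-Hochberg adjusted p = 0.00887). PIK3C3, the catalytic PI 3-kinase (ENSG00000078142.13, chromosome 18 from 41955206 to 42087830, forward strand), was at 68.6 and 64.4 CPM with Torin-1, above its DMSO values of 54.6 and 57.2. It reached 119% of control, with a log2 fold change of 0.25 (SE 0.078, limma, Benjamini-Hochberg adjusted p = 0.0235). Each of these calls depended on single libraries. PIK3C3 no longer passed without DMSO replicate 1 (limma, Benjamini-Hochberg adjusted p = 0.153), DMSO replicate 2 (0.0647) or Torin-1 replicate 1 (0.129), and PIP4K2C no longer passed without DMSO replicate 1 (0.126) or Torin-1 replicate 1 (0.0588).

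PIK3R4, whose product holds VPS34, was at 32.5 and 36.2 CPM with Torin-1 against 39.2 and 38.5 with DMSO. It thus lay on the other side of its controls from PIK3C3, without passing (log2 fold change -0.17, 95% interval -0.37 to 0.02, limma, Benjamini-Hochberg adjusted p = 0.150). VAC14 was at 46.7 and 37.2 CPM with Torin-1, and the samples fell on either side of the DMSO values of 44.6 and 44.5, with an interval from -0.32 to 0.13. PIKFYVE was at 77.6 and 76.6 CPM against 72.0 and 69.9, with a log2 fold change of 0.12 that did not pass (95% interval -0.03 to 0.26, limma, Benjamini-Hochberg adjusted p = 0.186). FIG4, at 36.7 and 34.9 CPM, had a log2 fold change of 0.10 with an interval from -0.12 to 0.32.

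MTMR2 was at 62.2 and 74.5 CPM with Torin-1, both below the DMSO values of 78.1 and 81.0, and just missed the threshold (log2 fold change -0.22, limma, Benjamini-Hochberg adjusted p = 0.0508). It passed without Torin-1 replicate 2 (limma, Benjamini-Hochberg adjusted p = 0.00568), which held the higher of the Torin-1 values. MTM1 was at 10.2 and 11.8 CPM, PIP4K2A at 14.7 and 13.6 and PIP4K2B at 46.7 and 41.8 with Torin-1. Their 95% intervals against DMSO all included 0.

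With Torin-1 2 of 10 members passed, 1 higher and 1 lower, where 38.5% of all genes tested passed, 16.6% as higher and 21.8% as lower. The groups did not overlap for 7 members, against 69.3% of all genes tested. The median log2 fold change was -0.08 over the members and -0.01 over all genes tested.

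The drugs were also compared directly with each other, with the spread estimated from all 6 samples of the drug table, DMSO included. PIP4K2C was higher with apilimod (204 and 211 CPM) than with Torin-1 (134 and 142), at 150% of the Torin-1 mean (log2 difference 0.59, SE 0.059, limma, Benjamini-Hochberg adjusted p = 2.42e-06). VAC14 was higher with apilimod as well, at 63.3 and 55.4 against 46.7 and 37.2 CPM (log2 difference 0.50, SE 0.106, limma, Benjamini-Hochberg adjusted p = 0.00154). Both differences passed under all 11 alternatives. PIP4K2B was higher with apilimod, at 52.2 and 52.5 against 46.7 and 41.8 CPM (log2 difference 0.24, limma, Benjamini-Hochberg adjusted p = 0.0313). It missed 0.05 in 6 of 11 alternatives, including without Torin-1 replicate 2 (limma, Benjamini-Hochberg adjusted p = 0.202), apilimod replicate 1 (0.0886) or apilimod replicate 2 (0.0976). PIK3C3 was lower with apilimod, at 53.1 and 57.2 against 68.6 and 64.4 CPM (log2 difference -0.27, limma, Benjamini-Hochberg adjusted p = 0.0127), a call lost without Torin-1 replicate 1 (0.0821) or apilimod replicate 1 (0.093).

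For PIKFYVE the drugs gave 83.7 and 81.9 against 77.6 and 76.6 CPM, a log2 difference of 0.10 with a 95% interval from -0.04 to 0.25. In all, 4 of 10 members differed between the drugs, 3 higher and 1 lower with apilimod, where 46.7% of all genes tested differed, 26.2% being higher and 20.5% lower. The groups did not overlap for 8 members, against 72.5% of all genes tested. The median difference was 0.12 over the members and 0.02 over all genes tested.

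**Figure D2:**
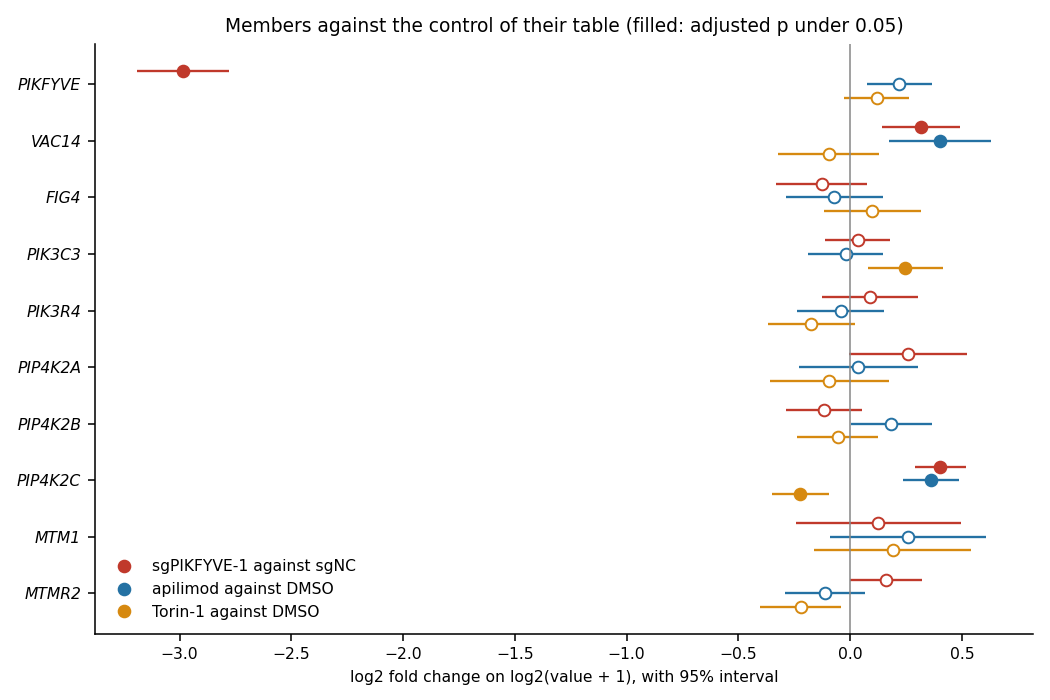
Log2 fold change of each member on log2(value + 1) (horizontal axis) with its 95% interval from limma, for sgPIKFYVE-1 against sgNC and each drug against DMSO. Filled points have an adjusted p under 0.05. PIP4K2C is filled in all 3 comparisons, at 0.40 and 0.36 to the right and at -0.22 to the left of 0, and PIKFYVE stands at -2.98 in the knockdown.

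The palindrome CACGTG, the E-box at the core of the CLEAR element that MiT/TFE factors bind in lysosomal genes, was searched in the RefSeq promoter windows of GRCh38.p14, each running from 250 bases before to 50 after a RefSeq start. All 10 members had a window, and 3 of them held the motif. The sites are shown because VAC14 and PIP4K2C were the members that rose in the knockdown and with apilimod. Neither apilimod call held under every alternative, and that of VAC14 was lost more often. Each line gives 30 bases, 5′ to 3′ on the gene's strand, with the motif in capitals.
VAC14, chr16:70801349-70801378, reverse strand: acagaagcccacCACGTGccatcagttggg
PIP4K2C, chr12:57591183-57591212, forward strand: ccggcctccggtCACGTGacagcagcgcag
MTM1, chrX:150568500-150568529, forward strand: cccctgccccgtCACGTGatgcagtcccgc
The motif began at -208 bp from the RefSeq start in VAC14, at 3 bp in PIP4K2C and at -109 bp in MTM1. CACGTG reads the same on both strands, so a search of either covers both. It was present in 7.26% of 35116 windows and in at least 1 window of 12.5% of the 10279 genes that were tested in the knockdown and had a window. MTM1, which holds the same letters, did not pass in any comparison. PIP4K2C and MTM1 share the flanks gtCACGTGa, and VAC14 has other flanks. A match is a description of the letters and not a site of binding.

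Levels between genes were compared per kb of the union of annotated exons. With DMSO, PIP4K2C had the highest level at 49.0 ± 2.43 CPM per kb (SD, n = 2), followed by MTMR2 at 13 ± 0.337, FIG4 at 9.30 ± 0.533, PIP4K2B at 7.5 ± 0.134, PIK3R4 at 7.22 ± 0.0936, PIKFYVE at 6.55 ± 0.137, VAC14 at 5.39 ± 0.00751, PIK3C3 at 3.68 ± 0.120, PIP4K2A at 2.99 ± 0.020 and MTM1 at 2.37 ± 0.326. The samples of neighbours in this order did not overlap with DMSO. PIP4K2C led in all 5 groups, from 41.9 CPM per kb with Torin-1 to 63.0 with apilimod. PIKFYVE fell from 9.15 ± 0.207 CPM per kb with sgNC, the fourth level, to 1.08 ± 0.109 with sgPIKFYVE-1 (SD, n = 2), below MTM1 at 2.62 ± 0.621. With Torin-1 the ranges overlapped between MTMR2 and FIG4, PIP4K2B and PIKFYVE, VAC14 and PIK3C3, and PIP4K2A and MTM1. The order depends on the length used. Per kb of the longest transcript, VAC14, whose exon union of 8276 bp is far longer than its longest transcript of 3609 bp, ranked 3 with DMSO instead of 7.

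**Figure D3:**
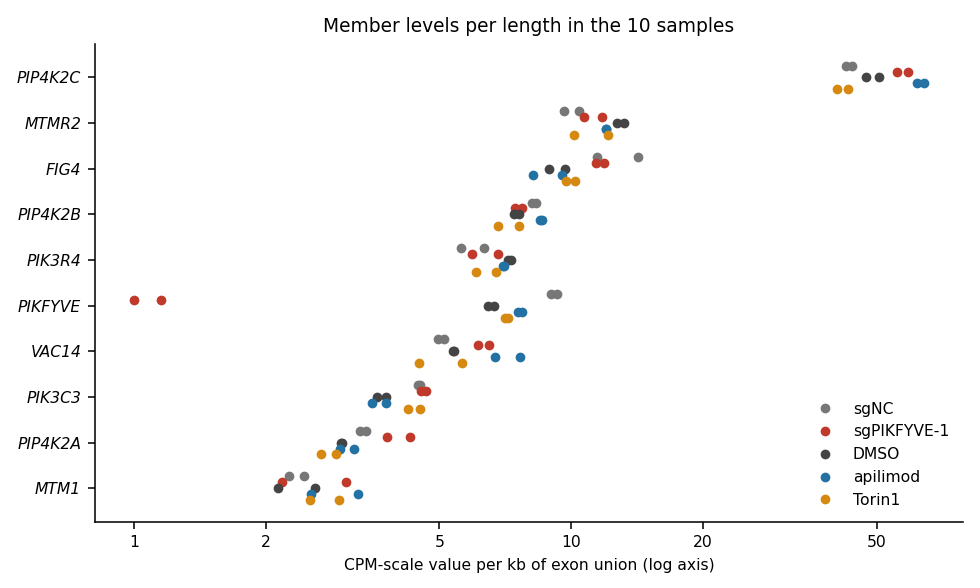
Level of each member per kb of exon union in each of the 10 samples (horizontal log axis, points colored by group). PIP4K2C lies between 41.9 and 63.0 in the group means, apart from all others, and only PIKFYVE with sgPIKFYVE-1 falls to 1.08.

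Ratios within the complex and within the 4-kinases do not depend on the scaling of a sample. VAC14 per FIG4, as a ratio of levels per kb of exon union, was 0.448 and 0.349 with sgNC and 0.570 and 0.515 with sgPIKFYVE-1. In the drug table it was 0.604 and 0.556 with DMSO, 0.934 and 0.702 with apilimod and 0.552 and 0.462 with Torin-1. The scaffold was thus higher relative to the phosphatase in every knockdown sample than in every sgNC sample, and in every apilimod sample than in every DMSO sample. VAC14 per PIKFYVE went from 0.551 and 0.552 with sgNC to 6.49 and 5.30 with sgPIKFYVE-1, where PIKFYVE was at 11.8% and VAC14 at 125% of control. With 2 samples a group, an exact permutation test cannot reach 0.05, so these ratios are given without a test.

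PIP4K2C made up 78.7% and 79.0% of the summed PIP4K2 level per kb with sgNC and 82.2% and 84.0% with sgPIKFYVE-1. The share was 82.8% and 82.0% with DMSO, 84.4% and 84.5% with apilimod and 79.5% and 81.9% with Torin-1. It was thus above its controls in both knockdown samples and both apilimod samples and below them in both Torin-1 samples, where the higher sample was within 0.1 percentage points of the lower DMSO sample. PIK3C3 per PIK3R4 was 0.493 and 0.526 with DMSO, 0.50 and 0.536 with apilimod and 0.747 and 0.629 with Torin-1. Only with Torin-1 did that ratio leave the range of its controls in both samples of a drug.

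**Figure D4:**
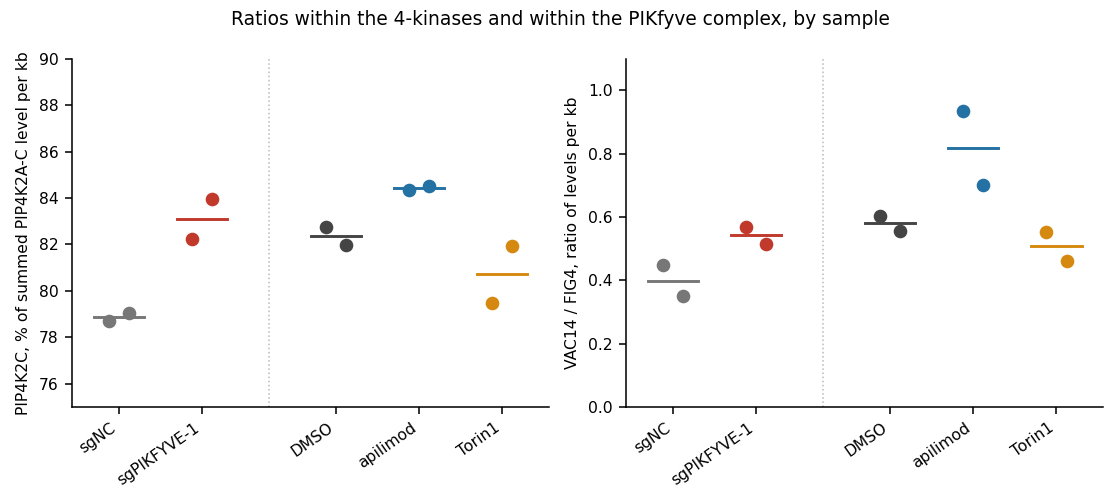
Share of PIP4K2C in the summed PIP4K2 level per kb (left, percent, axis from 75 to 90) and VAC14 per FIG4 (right, ratio of levels per kb, axis from 0) in each sample, with bars at group means and a dotted line between the separately scaled tables. The share is 78.7 and 79.0 with sgNC against 82.2 and 84.0 with sgPIKFYVE-1, and VAC14 per FIG4 is highest with apilimod at 0.934 and 0.702.

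The members sit in a wider network, and a list of 68 other phosphoinositide genes was read beside them. In the knockdown 65 of them were tested and 26 passed (40.0%), 13 in each direction, close to the 42.5% of all genes tested. Of the effectors of PI3P and PI(3,5)P2, 3 of 11 rose and 4 fell, where 21.6% of all genes tested rose and 20.9% fell. MCOLN3, an endolysosomal cation channel, was at 8.07 and 10.5 CPM with sgNC and at 22.4 and 21.7 with sgPIKFYVE-1 (log2 fold change 1.17). Its relative MCOLN1, the channel of lysosomes that PI(3,5)P2 opens, was at 18.1 and 16.1 against 36.7 and 28.9 CPM (log2 fold change 0.90). Both channels rose in both knockdown samples, which was a condition for naming them. EEA1, the PI3P-binding tether of early endosomes, was lower, at 71.5 and 72.3 against 46.8 and 51.9 CPM (log2 fold change -0.54). The PI3P-binding propeller WDR45B was lower too, at 250 and 258 against 186 and 191 CPM (log2 fold change -0.43). Channels and PI3P-binding genes did not divide by direction. The propeller WIPI1 rose (log2 fold change 0.48), and the channel TPCN1 (-0.32) and the propeller WDR45 (-0.41) fell.

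Among the kinases, PIP5K1B, a PI4P 5-kinase, was at 14.5 and 14.8 CPM with sgNC and at 35 and 35.1 with sgPIKFYVE-1 (log2 fold change 1.21). PIK3R3, a regulatory subunit of class I PI 3-kinase, was at 42.0 and 44.1 against 85.8 and 90.8 CPM (log2 fold change 1.02). PIK3CD, a class I catalytic subunit, was low, at 4.65 and 4.47 against 1.75 and 2.70 CPM (log2 fold change -0.80). Of the other myotubularin family genes, 2 of 12 tested fell: SBF2, which has no active phosphatase, at 91.2 and 85.2 against 60.2 and 58.8 CPM (log2 fold change -0.56), and MTMR3, an active 3-phosphatase, at 75.9 and 72.5 against 54.0 and 53.7 CPM (log2 fold change -0.45). The remaining phosphatases gave 2 higher and 5 lower of 15 tested, with INPP4B, which acts on PI(3,4)P2, at 13 and 14.1 against 22.2 and 19.4 CPM (log2 fold change 0.59). Of 5 genes of phosphatidylinositol synthesis and transfer, 3 rose, with CDS1, which makes CDP-diacylglycerol, at 35.4 and 33.8 against 48.6 and 48.3 CPM (log2 fold change 0.47). These changes passed in limma with Benjamini-Hochberg adjusted p from 1.98e-09 for PIK3R3 to 0.0135 for PIK3CD. Over all genes tested in the knockdown 21.6% rose and 20.9% fell, and no subgroup was tested as a set.

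With apilimod 8 of 63 tested genes of the wider list passed (12.7%), 7 higher and 1 lower, beside 8.54% of all genes tested. The count was 4 without DMSO replicate 1 or apilimod replicate 1 and 5 without DMSO replicate 2. MCOLN3 was at 13.6 and 13.7 CPM with DMSO and at 33.4 and 33.1 with apilimod (log2 fold change 1.22). WIPI1, a PI3P-binding propeller of autophagy, was at 39.2 and 44.6 against 79.1 and 76.8 CPM (log2 fold change 0.88). PIP4P1, a 4-phosphatase of PI(4,5)P2, was at 33.7 and 36.4 against 59.0 and 62.2 CPM (log2 fold change 0.77). Both apilimod samples of each of these genes lay above both DMSO samples, which was a condition for naming it. The class II PI 3-kinase PIK3C2A was at 126 and 120 against 173 and 178 CPM (log2 fold change 0.51), and the PI 4-kinase PI4K2A at 28.9 and 29 against 42.2 and 35.7 CPM (log2 fold change 0.41). INPP4B was the lower gene, at 10.7 and 9.72 against 5.35 and 6.89 CPM (log2 fold change -0.66). Adjusted p-values of these 6 genes (limma, Benjamini-Hochberg) ran from 2.82e-06 for MCOLN3 to 0.0214 for PI4K2A.

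The knockdown and apilimod have separate controls. The 6 genes PIK3R3, PIK3C2A, PI4K2A, WIPI1, MCOLN1 and MCOLN3 were higher in both, 6 of the 13 genes that rose in the knockdown (46.2%) and 6 of the 7 that rose with apilimod (85.7%). Over all 13235 genes tested in both, 491 were higher in both, 17% of the 2894 that rose in the knockdown and 63.5% of the 773 that rose with apilimod. No test of the list against that background was made. INPP4B was higher in the knockdown and lower with apilimod.

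With Torin-1 21 of 63 passed (33.3%), 9 higher and 12 lower, beside 38.5% of all genes tested. WDR45, a further PI3P-binding propeller, was at 31.8 and 34.6 CPM with DMSO and at 67.1 and 60.5 with Torin-1 (log2 fold change 0.92). ATG14, the subunit that directs PIK3C3 to autophagy, was at 14.4 and 14.3 against 25.7 and 25.4 CPM (log2 fold change 0.79). TPCN1, an endolysosomal channel, was at 33.1 and 33.5 against 56.2 and 53.6 CPM (log2 fold change 0.71). Each of these was higher in both Torin-1 samples than in any DMSO sample, which was a condition for naming it. MCOLN3, at 21.9 and 23.3 CPM, rose as well (log2 fold change 0.69), and so did MTMR11, a low transcript at 5.25 and 3.23 against 7.17 and 6.55 CPM (log2 fold change 0.61).

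In the other direction, PIK3R3 fell from 80.1 and 84.8 CPM with DMSO to 46.4 and 51.2 with Torin-1 (log2 fold change -0.74). Of 8 class I and II PI 3-kinase genes tested 4 passed, all lower, where 38.5% of all genes tested passed and 21.8% were lower. CDS1 was at 29.1 and 28.9 against 17.9 and 22.4 CPM (log2 fold change -0.51). Of the 5 synthesis and transfer genes 3 passed, all lower. Subgroups of this size are too small for a shared direction to be read, and none was tested as a set. WDR45B was at 104 and 107 against 75.4 and 74.1 CPM (log2 fold change -0.49), opposite to its relative WDR45. SYNJ2, a 5-phosphatase, was at 19.5 and 24 against 16.7 and 15.9 CPM (log2 fold change -0.39), and MTMR12, an inactive partner of MTM1, at 56.6 and 58.3 against 46.5 and 44.4 CPM (log2 fold change -0.33). For the 10 named genes, adjusted p-values (limma, Benjamini-Hochberg) ran from 4.14e-06 for PIK3R3 to 0.0483 for MTMR11.

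**Figure D5:**
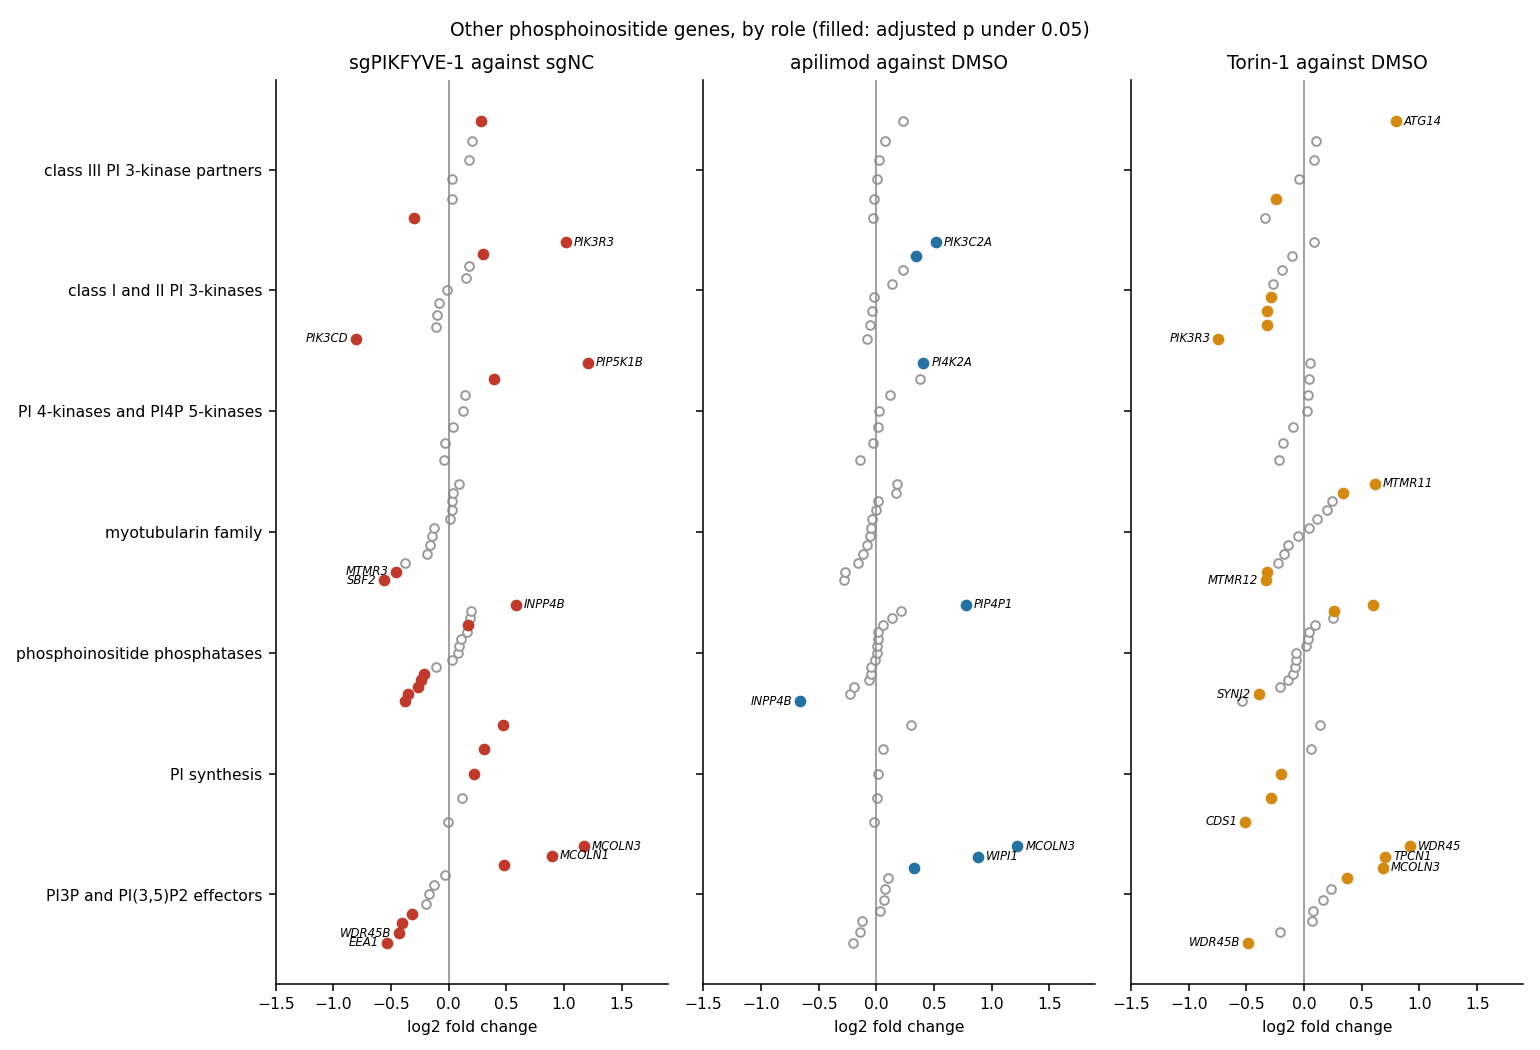
Log2 fold change (horizontal axis) of the 68 listed phosphoinositide genes that were tested, grouped by role, for sgPIKFYVE-1 against sgNC, apilimod against DMSO and Torin-1 against DMSO. Filled points have an adjusted p under 0.05, and the labelled genes are those with the 5 highest and 5 lowest values that passed. MCOLN3 lies to the right in all 3 panels, at 1.17, 1.22 and 0.69.

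Set directly against Torin-1, apilimod gave higher values for 22 and lower values for 11 of the 63 genes, 33 in all (52.4%), beside 46.7% of all genes tested. PIK3R3 had the highest difference at 1.09 (106 and 103 CPM with apilimod), followed by CDS1 at 0.81 (34.3 and 37.5 CPM), PIK3C2A at 0.80, PIP4P1 at 0.75 and WIPI1 at 0.72. WDR45 had the lowest at -1.07 (30.9 and 28.9 CPM with apilimod), followed by TPCN1 at -0.91 (31.1 and 26.6 CPM), MTMR11 at -0.90 (2.62 and 3.93 CPM), ATG14 at -0.79 (13.3 and 15.5 CPM) and the 5-phosphatase INPP5K at -0.61 (25.4 and 22.8 CPM). Of the 8 class I and II PI 3-kinase genes tested 4 passed, all higher with apilimod, where 26.2% of all genes tested were higher. Of the 6 listed partners of PIK3C3, 3 passed: ATG14 was lower, and NRBF2 (log2 difference 0.41, limma, Benjamini-Hochberg adjusted p = 0.0433) and UVRAG (0.28, adjusted p = 0.0327) were higher with apilimod.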

How the data were processed

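RNA-seq of 10 QGP-1 samples was used. The labels describe ribosomal RNA depletion and the methods oligo(dT) selection. The authors used bcl2fastq 2.20, FastQC and Trimmomatic, summed transcripts to genes and scaled by TMM (edgeR), and they tested genes with DESeq2. The build is hg38 per the labels, and the quantifier and annotation are not given in the sources used here. What the authors deposited is a gene-level signal whose scale is that of CPM but whose samples do not sum to 1000000, although the design assumed CPM. Low values were whole reads in 71.9% to 75.0% of cases (tolerance 0.02 reads), too few to recover counts.

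Genes with a mean of at least 1 were tested on log2(value + 1), which understates changes of low genes, with limma 3.58.1 in R 4.3.3 (lmFit, eBayes with trend) and Benjamini-Hochberg adjustment over all genes tested, at 0.05. The fit had 4 samples for the knockdown and 6 for the drugs. The procedure was tested on simulated data. No replicates were closer than sampling noise. Members and lists were chosen with earlier results of these data known. Named genes are all members, neighbours within 200 kb of the PIKFYVE start and, of the wider list, the 5 highest and 5 lowest that passed without overlap. CDS1, WIPI1, TPCN1 and WDR45 in the knockdown, NRBF2, UVRAG and the markers given singly were added after their values were seen. Positions are GENCODE release 29, promoter windows RefSeq GRCh38.p14. Alternatives were a pseudocount of 0.1, no filter, columns rescaled to 1000000, no variance trend, a replicate block, quantile normalization, a fit of the 2 compared groups alone, and each sample left out. The neighbours were rerun as an alternative chosen after seeing the data. Figures used matplotlib 3.10.9 in Python 3.11.15.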

Additional observations from a re-analysis of the deposited data

How the results depend on the processing

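Of 430 member values under alternatives, 389 kept direction and side of the threshold, 22 no longer passed, 6 newly passed and 13 changed sign. The cause was not tested.

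Without the variance trend, 17 wider-list genes and 3709 of all genes passed in the knockdown, and with apilimod 0 members (3 at an unadjusted p under 0.05), 4 wider-list genes and 466 of all genes. With Torin-1 it left 0 members (2 unadjusted). Without the filter, apilimod gave 1 member, 4 wider-list genes and 565 of all genes. Quantile normalization left 1 member with apilimod. The rank of VAC14 with DMSO per kb of the longest transcript was 3. Rescaling to 1000000 turned PIK3C3 in the knockdown to -0.0067. The share of higher genes among apilimod's calls was 67.4% as deposited, 54.2% rescaled to 1000000 and 55.1% after quantile normalization.

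With each sample left out, apilimod kept 1 to 2 members, 4 to 7 wider-list genes and 596 to 833 of all genes, Torin-1 kept 0 to 3 members, with 0 (2 unadjusted) without DMSO replicate 1 or Torin-1 replicate 1, and 1 without DMSO replicate 2, and the drug against drug comparison kept 2 to 4, with 2 without apilimod replicate 1. The count of all genes with apilimod was 656 without DMSO replicate 1, 596 without DMSO replicate 2 and 688 without apilimod replicate 1. Signs changed in ranges of -0.28 to 0.026 (FIG4), -0.0068 to 0.19 (PIK3R4) and -0.097 to 0.35 (MTM1) in the knockdown, -0.18 to 0.036 (FIG4), -0.072 to 0.034 (PIK3C3) and -0.013 to 0.086 (PIP4K2A) with apilimod, -0.26 to 0.065 (VAC14) and -0.13 to 0.022 (PIP4K2B) with Torin-1, and -0.096 to 0.24 (MTM1) and -0.019 to 0.24 (MTMR2) between the drugs. A lone sample of a group was assumed to vary like the others.

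Deviations from the group means, matched by replicate number, correlated weakly between groups (r = 0.037 in the knockdown table and 0.0483, 0.0426 and 0.104 in the drug table, over 2 numbers). All were positive, and they cannot settle whether the samples were paired. With the number as a replicate block, 3 members passed in the knockdown, 3 with apilimod (PIKFYVE newly, limma, Benjamini-Hochberg adjusted p = 0.0205), 3 with Torin-1 (MTMR2 newly, 0.0183) and 4 between the drugs, and 1756 of all genes passed with apilimod against 1155 without the block. IDH1 and PTH2R kept their direction and passed under all of the alternatives run. Depth left member values of at least 80.0 reads, so low counts limit MTM1 most.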

Other observations

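The control groups of the separately scaled tables differed in several of these transcripts. PIKFYVE was at 101 and 97.5 CPM with sgNC and at 72.0 and 69.9 with DMSO, FIG4 at 41.1 and 51.1 against 32.0 and 34.8, and MTMR2 at 63.9 and 59.1 against 78.1 and 81.0. Among the wider list, WDR45B was at 250 and 258 CPM with sgNC and 104 and 107 with DMSO, WIPI1 at 90.4 and 92.8 against 39.2 and 44.6, and PIK3R3 at 42.0 and 44.1 against 80.1 and 84.8. These genes were chosen after their values were seen, and no test was made across the tables. The differences ran in both directions, and PIK3R1 was at 52.1 and 51.5 CPM with sgNC and 53.1 and 50.4 with DMSO. Their cause was not tested. The sgNC cells carry the CRISPRi construct and were selected with puromycin, and the table cannot be told apart from those differences between the cells.

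Of the 58 wider-list genes with a RefSeq promoter window, 7 held CACGTG: ATG14, NRBF2, PI4KA, PI4K2B, PIP5K1A, INPP4B and MCOLN1. In the knockdown, 2 of the 11 with a window that rose held it (INPP4B and MCOLN1), and 0 of the 12 that fell. With apilimod it was held by 1 of the 5 that rose (MCOLN1) and by the 1 that fell, INPP4B. With Torin-1 it was held by 1 of the 9 that rose (ATG14) and 0 of the 11 that fell. Of the genes tested in the knockdown that had a window, 12.5% held it. No test was made. MCOLN3 and WIPI1 are not among the 7.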
